A study of Mus musculus with 2 samples.

Results

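Notch signalling genes were followed in cultured mouse skeletal myoblasts with and without Foxj3, a forkhead transcription factor. The set held 10 genes: the receptors Notch1, Notch2 and Notch3, the ligands Dll1 and Jag1, the nuclear effector Rbpj, the receptor regulator Numb, and the target genes Hes1, Hey1 and Heyl. They were taken by name, with every probe set that the array annotation gives them, from 18193 genes named on the array. All 10 genes had a probe set, 20 probe sets in total. The samples were 1 Foxj3 knockout (KO) myoblast culture and 1 wild-type (WT) myoblast culture, each on 1 Affymetrix Mouse430_2 oligonucleotide array. Both cultures were at passage 3, were kept in medium with 20% fetal bovine serum and were harvested at 80% confluence. How the Foxj3 allele was made, the strain, the age and the number of animals behind each culture are not given in the sources used here. With 1 array per group there is no spread between cultures and no test, so every ratio below describes these arrays.

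Notch receptors are activated by Delta and Jagged ligands on neighbouring cells. Activation cuts the receptor and releases its intracellular part, which enters the nucleus, binds the DNA-binding protein RBPJ and switches on genes of the HES and HEY families, whose products are repressors. In skeletal muscle this pathway is known for keeping satellite cells and myoblasts undifferentiated.

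Signals are linear intensities as deposited by the authors. The median over 45037 probe sets was 63.94 on the KO array and 62.03 on the WT array. A signal of 47.04, the 40th percentile of the pooled values, was taken as the detection floor, and 60.8% of probe sets on the KO array and 59.2% on the WT array lay over it. Lower values were raised to the floor before log2, so a ratio with 1 array under the floor is a bound. A gene is represented by its brightest probe set, the one with the highest mean log2 value over both arrays after that floor. It can be the dimmer one on a single array. In total 14597 genes were measured, that is, over the floor on at least 1 array. Foxj3 itself read 77.28 on the KO array and 495.51 on the WT array by its brightest probe set, 6.41-fold lower. Another Foxj3 probe set read 99.40 and 79.74 (KO and WT), in the other direction, so the probe sets do not settle the labels. The log2 ratios of different probe sets of a gene differed with an SD of 0.66 over genes in which at least 2 of them exceeded the floor in KO and in WT. That SD is the only measure of technical spread available here, and it leaves out differences between cultures.

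None of the 10 Notch genes reached a 2-fold difference by its brightest probe set. The count was 0 of 10 higher in KO myoblasts, beside 3.73% of all measured genes, and 0 of 10 lower, beside 6.72%. At 1.5-fold, Notch3 and Heyl were higher (2 of 10, beside 12.8%) and Notch1 was lower (1 of 10, beside 19.3%). The median log2 ratio of the 10 genes was 0.13, beside -0.06 for all measured genes, with 6 genes above 0 and 4 below. Their ratios ran from -0.64 to 0.93, while the 5th and 95th percentiles of all measured genes were -1.10 and 0.91. All 10 were smaller in size than 1.5 times the probe set SD.

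Over single probe sets the spread was wider. Of the 20, 18 were measured, and the other 2 were both of Jag1. Of these 18, 2 were at least 2-fold higher in KO myoblasts, 1 of Notch2 and 1 of Heyl, beside 5.62% of all measured probe sets with 1 gene symbol. No measured probe set was at least 2-fold lower (0 of 18, beside 6.67%). At 1.5-fold the counts were 6 of 18 higher, beside 15.4%, and 1 of 18 lower, beside 18.3%. The 6 were 1 of Notch2, both of Notch3, 1 of Numb and 2 of Heyl. The probe sets of a gene share their target, so they are not independent samples of the pathway. Of the 6 genes with several measured probe sets, 4 had all of them on 1 side of 0 (Notch2, Notch3, Rbpj and Heyl, all above 0) and 2 had both signs (Notch1 and Numb). Among 3047 genes with exactly 2 probe sets over the floor in KO and in WT, both had the same sign in 52.8%. That share follows a stricter rule than the count above, which includes bounds. By the stricter rule Notch2 and Heyl had the same sign, Notch1 and Numb had opposite signs, and Notch3 and Rbpj would not be counted. So few genes can neither show nor exclude an excess of agreement. Of the 18 measured probe sets, 14 had ratios above 0 and 4 below, with a median log2 ratio of 0.32. Over all 25057 measured probe sets with 1 gene symbol, 12261 were above 0 and 12794 below, with a median of -0.02.

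**Figure D1:**
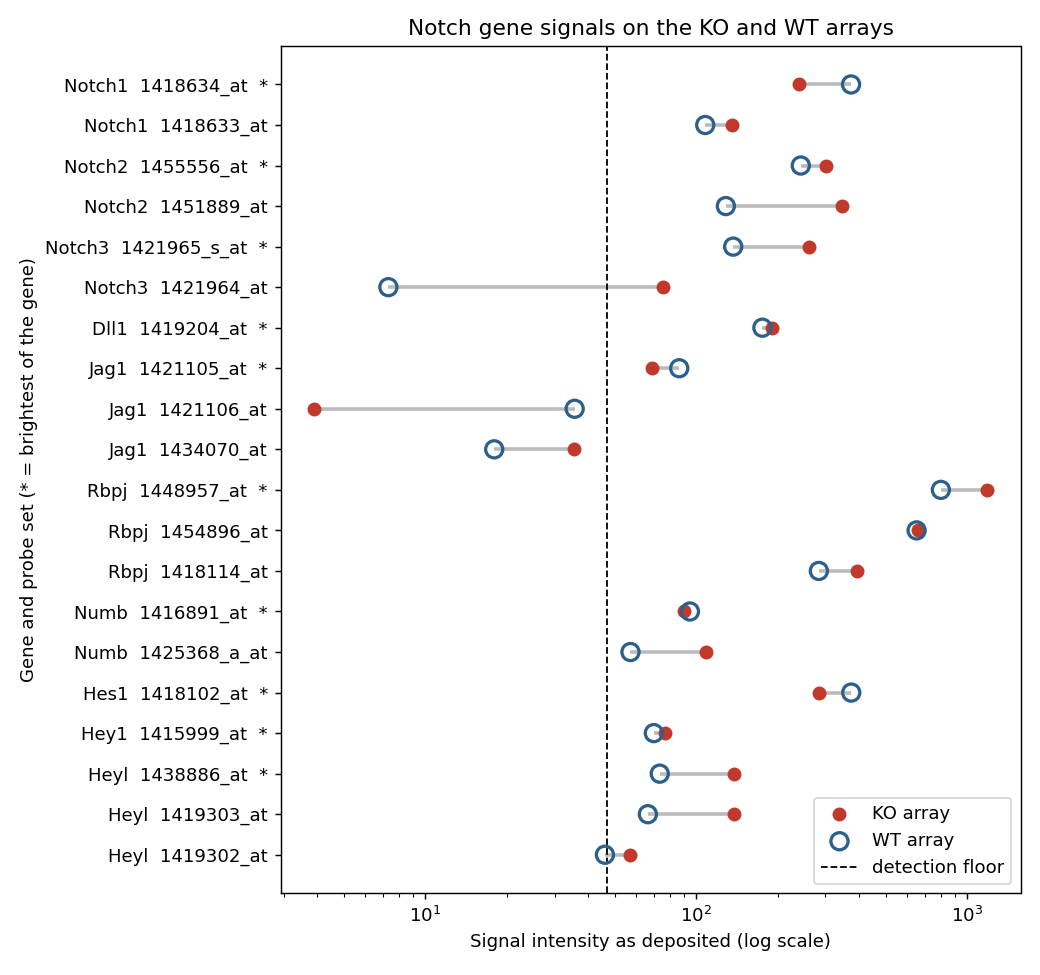
Signal intensity as deposited (log axis) of all 20 probe sets of the 10 Notch genes on the KO array (filled) and the WT array (open), with the detection floor of 47.04 as a dashed line. The widest gap, in a Notch3 probe set, has its WT signal of 7.31 far below the floor, and 2 Jag1 probe sets lie below it on both arrays.

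Of the 6 receptor probe sets, 5 had ratios above 0, and the exception was the brightest of Notch1. Notch1, a receptor long linked to maintenance of muscle stem cells, read 239.29 in KO myoblasts and 372.80 in WT myoblasts by its brightest probe set, 1418634_at, a log2 ratio of -0.64. Its other probe set, 1418633_at, read 136.07 in KO myoblasts and 107.96 in WT myoblasts, a log2 ratio of 0.33. Both were designed from the same sequence record in the annotation, so these data give Notch1 no single direction.

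Notch2 was above its WT signal in both probe sets, by unlike amounts. The brightest, 1455556_at, read 302.57 in KO myoblasts and 243.20 in WT myoblasts (1.24-fold). The other, 1451889_at, read 345.60 in KO myoblasts and 128.64 in WT myoblasts (2.69-fold, log2 ratio 1.43), which was the highest ratio of all 18 measured probe sets. The choice of probe set therefore decides whether Notch2 counts as 2-fold different.

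Notch3, the receptor that in mouse satellite cells is known to restrain proliferation, had the highest ratio of the 10 genes by the brightest probe set. It read 260.02 in KO myoblasts and 136.92 in WT myoblasts by 1421965_s_at, a log2 ratio of 0.93 (1.90-fold). Its ending, _s_at, marks a probe set that can match several transcripts. The other probe set, 1421964_at, read 75.61 in KO myoblasts and 7.31 in WT myoblasts, where it was under the floor, so the difference was at least 1.61-fold higher. Both probe sets lay on the same side, and both were designed from the same record. Notch3 reached 2-fold with quantile scaling (log2 ratio 1.03) and with loess scaling (1.05), and stayed under it as deposited.

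Notch3 is also known as a marker of smooth muscle cells and pericytes, which can be present in muscle cultures. Of 10 markers of these cells, 7 were measured: 4 had ratios above 0 and 3 below. Of these 7, 1 was at least 2-fold higher (Tagln), beside 3.73% of all measured genes, and 1 at least 2-fold lower (Myh11), beside 6.72%. Their median log2 ratio was 0.07. Their summed signal was 8295 on the KO array and 9234 on the WT array. This sum includes Des, which is also counted below among the markers of myoblasts and satellite cells. Des read 1090.79 on the KO array and 2024.29 on the WT array, and Acta2 5080.98 and 6049.03. Tagln, on the other side, read 1748.80 on the KO array and 625.85 on the WT array. The sum thus depends on single bright genes. The pericyte markers Cspg4, Pdgfrb and Kcnj8 were under the floor on both arrays. The part of such cells in the Notch3 signal was not tested. In RNA from a whole culture, fewer cells of a type and less RNA per cell cannot be told apart.

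The promoter windows of the receptors are printed because the receptors differed in ratio while sharing a pathway, and the first of the 2 overlapping windows of Rbpj because Rbpj was the 1 gene searched whose windows held the RBPJ-type core. Each is 300 bases long, from 250 before to 50 after the start of the gene, 5′ to 3′ on the strand of the gene, from RefSeq (GRCm38.p6). Capitals mark matches on either strand to TGGGAA (the core that RBPJ binds), TAAACA (a forkhead-type core), CANNTG (the E-box bound by myogenic bHLH factors) and CACNAG (the N-box bound by HES proteins).
Notch1, chr2:26503773-26504072, minus strand: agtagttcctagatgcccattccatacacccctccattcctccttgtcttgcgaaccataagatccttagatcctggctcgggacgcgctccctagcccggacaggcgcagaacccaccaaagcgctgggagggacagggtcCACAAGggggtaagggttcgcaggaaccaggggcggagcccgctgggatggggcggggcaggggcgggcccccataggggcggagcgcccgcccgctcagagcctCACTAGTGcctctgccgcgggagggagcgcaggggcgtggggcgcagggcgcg
Notch2, chr3:98013288-98013587, plus strand: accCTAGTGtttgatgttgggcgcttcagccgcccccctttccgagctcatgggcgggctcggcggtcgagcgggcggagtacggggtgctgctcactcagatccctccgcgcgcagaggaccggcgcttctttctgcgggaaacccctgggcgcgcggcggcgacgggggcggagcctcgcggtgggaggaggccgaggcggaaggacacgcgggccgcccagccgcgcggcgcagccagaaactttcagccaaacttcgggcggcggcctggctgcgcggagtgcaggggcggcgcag
Notch3, chr17:32166841-32167140, minus strand: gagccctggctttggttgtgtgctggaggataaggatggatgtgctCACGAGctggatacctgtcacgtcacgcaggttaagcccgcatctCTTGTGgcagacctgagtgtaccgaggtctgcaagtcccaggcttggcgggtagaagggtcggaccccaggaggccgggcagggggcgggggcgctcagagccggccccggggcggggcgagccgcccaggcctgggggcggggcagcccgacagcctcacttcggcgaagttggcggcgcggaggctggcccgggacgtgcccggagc
Rbpj, chr5:53590096-53590395, plus strand: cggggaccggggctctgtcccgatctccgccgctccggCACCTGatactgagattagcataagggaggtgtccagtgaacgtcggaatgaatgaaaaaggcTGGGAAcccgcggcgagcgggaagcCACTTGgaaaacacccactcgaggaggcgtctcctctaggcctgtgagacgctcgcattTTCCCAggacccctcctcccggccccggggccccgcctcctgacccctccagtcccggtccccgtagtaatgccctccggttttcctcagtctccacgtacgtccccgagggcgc

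The receptor windows held N-box matches alone: 3 in Notch1 (of which 2 overlap each other), 1 in Notch2 and 2 in Notch3. An N-box match was in 42.5% of all 32851 promoter windows of the same length, a large share of promoters. The Rbpj window held 2 matches to TGGGAA or its complement, and 25.6% of all windows held at least 1. The second Rbpj window, not printed, held 1 of these matches. The first also held 2 E-box matches, which 72.3% of windows have. A TAAACA match, found in 13.4% of all windows, was in none of the 4 printed. Windows of 7 of the 10 genes were searched, and the single TAAACA match among their 11 windows was in 1 of the 3 windows of Numb. A match is a string of letters and not a shown binding site, and a missing match speaks of these windows alone.

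The ligands were close on both arrays. Dll1, the Delta-type ligand that myogenic cells present to their neighbours, read 190.48 in KO myoblasts and 175.47 in WT myoblasts by its single probe set (log2 ratio 0.12). Jag1, a Jagged-type ligand, read 68.96 in KO myoblasts and 86.56 in WT myoblasts (log2 ratio -0.33) by the 1 probe set over the floor. Its other probe sets read 3.89 and 35.28 in KO myoblasts, against 35.60 and 17.97 in WT myoblasts, all under the floor. No ratio was formed from those, and the Jag1 value rests on a dim signal.

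Rbpj, the DNA-binding partner of the cleaved receptor, was read by 3 probe sets, each over the floor in KO and in WT. The brightest read 1182.22 in KO myoblasts and 799.80 in WT myoblasts (1.48-fold). The others read 391.30 in KO myoblasts and 283.59 in WT myoblasts (1.38-fold), and 655.73 in KO myoblasts and 650.76 in WT myoblasts (1.01-fold). The first pair was designed from the same record and gave like ratios, and the third was level. With the mean over probe sets the log2 ratio of Rbpj was 0.35, against 0.56 for the brightest.

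Numb, an endocytic adaptor that lowers Notch activity at the membrane, depended on the probe set. The brightest read 90.10 in KO myoblasts and 94.81 in WT myoblasts (log2 ratio -0.07). The other, 1425368_a_at, read 108.67 in KO myoblasts and 57.20 in WT myoblasts (log2 ratio 0.93). The ending _a_at marks a probe set for alternative transcripts of 1 gene, and Numb is known to be made in several splice forms. The sign of Numb turned to 0.43 with the mean over probe sets and to 0.33 when the 60th percentile was the floor.

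**Figure D2:**
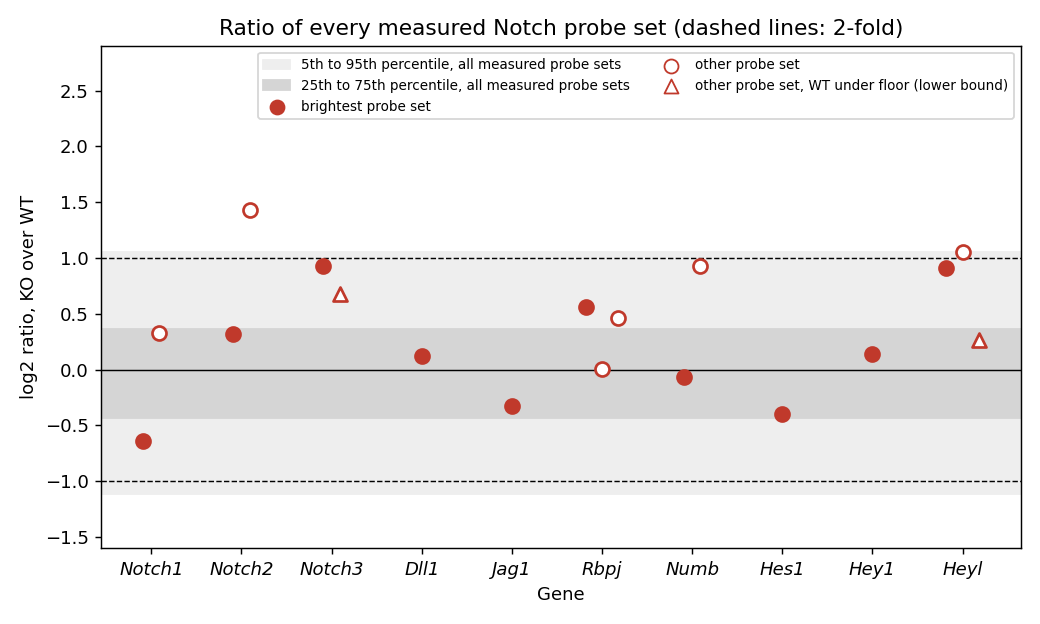
Log2 ratio, KO over WT, of the 18 measured Notch probe sets by gene. Filled points are the brightest probe set of a gene, open points the others and triangles lower bounds with WT under the floor, over shaded bands of all measured probe sets. Of the points, 2 lie above the 2-fold line at 1 (Notch2 at 1.43 and Heyl at 1.05), and Notch1 has the lowest at -0.64.

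The target genes did not share a direction. Hes1, a bHLH repressor that is a direct target of Notch, read 283.57 in KO myoblasts and 373.40 in WT myoblasts by its single probe set (log2 ratio -0.40). Hey1, a related repressor that can hinder MyoD, read 76.70 in KO myoblasts and 69.75 in WT myoblasts, also by a single probe set (log2 ratio 0.14). Heyl was above its WT signal in all 3 probe sets. Its brightest read 138.01 in KO myoblasts and 73.36 in WT myoblasts (1.88-fold).

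Heyl, a HEY repressor found in quiescent satellite cells of the mouse, was the target with the most probe sets. The second read 137.53 in KO myoblasts and 66.31 in WT myoblasts (2.07-fold). The third read 56.74 in KO myoblasts and 46.04 in WT myoblasts, where it was under the floor, so the ratio was at least 1.21-fold. The first and second probe sets came from different sequence records and had log2 ratios of 0.91 and 1.05. All 3 WT signals were under 2 times the floor, and with a pseudocount in place of the floor the log2 ratio of the brightest fell to 0.62.

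Markers of differentiated muscle, a state that Notch is known to hold back, were lower on the KO array. All 10 of these markers had ratios below 0, and 9 were at least 2-fold lower, beside 6.72% of all measured genes. The summed signal of the 10 markers was 5437 on the KO array and 23954 on the WT array. Without replicate arrays, a difference between cultures cannot be told apart from an effect of genotype. The part of Notch in these marker signals was not tested. Of 10 markers of myoblasts and satellite cells, 5 had ratios above 0 and 5 below by the brightest probe set. Their summed signal was 11240 on the KO array and 9552 on the WT array. This sum depends on single bright genes. Sdc4 read 2148.91 on the KO array and 468.01 on the WT array, Myod1 1750.95 and 631.27, and Des 1090.79 and 2024.29. The median log2 ratio of the 10 markers, 0.01, turned to -0.08 with loess scaling. By the brightest probe set, 2 of these 10 were at least 2-fold higher, beside 3.73% of all measured genes, and none was 2-fold lower. They were Sdc4, which encodes the cell surface proteoglycan syndecan-4 (4.59-fold), and the myogenic determination factor Myod1 (2.77-fold). The other probe set of Sdc4 had a log2 ratio of 0.22, under 2-fold, and Myod1 had no other measured one. By probe sets other than the brightest, Pax7 and Vcam1 also passed 2-fold higher, and Ncam1 passed it in both directions. Whether the receptor and target signals move with the share of differentiated cells was not tested. Endothelial markers, from a cell type that uses Notch strongly, were mostly dim: 5 of 10 (Pecam1, Tek, Emcn, Tie1 and Robo4) were under the floor on both arrays, and the 5 measured ones had a summed signal of 562 on the KO array and 420 on the WT array. Of these, 3 had ratios above 0 and 2 below, and the median log2 ratio was 0.42. Esam, under the floor in WT myoblasts, was at least 2.01-fold higher (1 of 5, beside 3.73% of all measured genes). Leukocyte markers had a summed signal of 759 on the KO array and 807 on the WT array over 5 of 8 genes, with Ptprc, Cd68 and Itgam under the floor on both, and Schwann and neural markers 617 and 1117 over 5 genes. Of those 5, 4 had ratios above 0 (median log2 ratio 0.21), and the lower sum came from Erbb3, which read 46.94 in KO myoblasts, under the floor, and 628.48 in WT myoblasts.

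**Figure D3:**
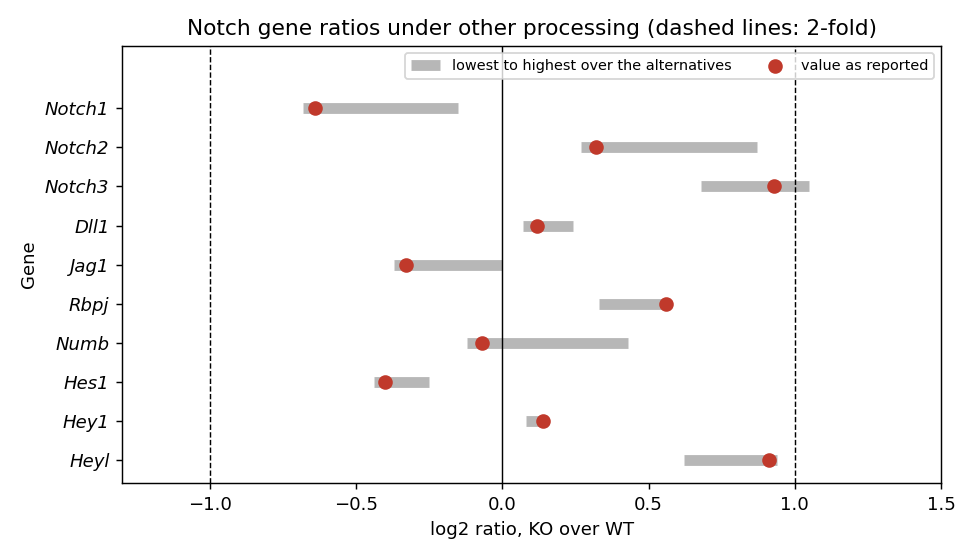
Log2 ratio, KO over WT, of the 10 Notch genes as reported (points) and its range over the alternative settings (bars). Numb is the gene whose bar crosses 0, from -0.12 to 0.43, and Notch3 the gene whose bar passes the 2-fold line, at 1.05.

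Beyond the 10 genes, 74 further genes of the pathway in 10 lists were looked at, of which 69 had a probe set and 63 were measured. Of these 63, 4 were at least 2-fold higher in KO myoblasts, beside 3.73% of all measured genes, and 3 at least 2-fold lower, beside 6.72%. Their median log2 ratio was -0.05, beside -0.06 for all measured genes. The list as a whole therefore had a median like that of all genes, and the larger differences were in single genes.

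The largest of these was Nedd4, an E3 ubiquitin ligase whose Drosophila counterpart promotes removal of Notch from the membrane. It read 2952.32 in KO myoblasts and 784.14 in WT myoblasts by its brightest probe set (3.77-fold). Its other probe sets read 2299.81 in KO myoblasts and 532.72 in WT myoblasts, and 804.32 in KO myoblasts and 47.78 in WT myoblasts. All 3 were at least 2-fold higher, with log2 ratios of 1.91, 2.11 and 4.07, and this was the single gene of the 7 called ones with several probe sets that all passed 2-fold. In the same list of receptor trafficking and turnover, Dtx2, a Deltex-type ligase, was 2.27-fold lower in KO myoblasts by its brightest probe set (59.03 in KO and 133.94 in WT), while its other probe set read 94.19 and 79.97. Dtx3 read 326.48 in KO myoblasts and 319.82 in WT myoblasts.

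Among the enzymes that cut the receptor, 2 genes passed 2-fold, in opposite directions. Aph1b, a subunit of gamma-secretase, read 801.45 in KO myoblasts and 271.55 in WT myoblasts (2.95-fold higher), and its other probe set read 107.72 and 72.74, on the same side. Aph1a, its paralogue, which takes the same place in the complex, read 137.60 in KO myoblasts and 286.60 in WT myoblasts (2.08-fold lower), but its other probe sets had log2 ratios of 0.06 and -0.10. The other measured subunits of the complex, Ncstn, Psenen and Psen2, had log2 ratios of 0.02, 0.02 and 0.39. Furin, the protease that processes the receptor precursor, read 311.04 in KO myoblasts and 620.56 in WT myoblasts by a single probe set, 1.995-fold lower and just under the threshold. These 4 were named after their values were seen. Adam10, the protease of the first activating cut, read 362.36 in KO myoblasts and 565.81 in WT myoblasts by its brightest probe set, and 2 of its 3 further ones lay on the opposite side. Over the 8 measured genes of receptor cleavage 4 were above 0 and 4 below, with a median log2 ratio of -0.10 that turned to 0.02 with loess scaling.

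Among ligands outside the 10 genes, Dlk2, a Delta-like protein that can hinder Notch, was 3.07-fold higher in KO myoblasts (378.58 in KO and 123.17 in WT). Its other probe set, an _x_at one that can match unrelated transcripts, read 190.22 and 164.31, under 2-fold. Jag2 read 283.57 in KO myoblasts and 210.77 in WT myoblasts. For uptake of ligands, Mib2, an E3 ligase of Delta endocytosis, was 2.04-fold lower by a single _s_at probe set (132.35 in KO and 269.62 in WT). Mib1, the ligase mainly needed for that step, read 338.56 in KO myoblasts and 570.29 in WT myoblasts, with both other probe sets below 0. Neurl1a read 552.72 in KO myoblasts and 334.78 in WT myoblasts, while 4 of its 5 further ones lay below 0. Over the 5 measured genes of ligand uptake the median log2 ratio was -0.52, which is the value of Epn2 by an _x_at probe set. The other probe sets of Epn2 had log2 ratios of at least 0.98 (WT under the floor), 1.06, -0.13 and 0.37. Epn2 was named after its values were seen.

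The glycosyltransferases that add sugars to Notch had a median log2 ratio of -0.46, with 4 of 5 below 0 and none at 2-fold. Pofut1, which adds the first fucose, read 156.27 in KO myoblasts and 215.40 in WT myoblasts, with its other probe set on the opposite side, and Poglut1, which adds glucose, read 256.47 and 228.79 (KO and WT). Notch4, the remaining receptor, read 12.01 in KO myoblasts and 48.40 in WT myoblasts, under the floor in KO and just over it in WT.

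In the nucleus, coactivators of the RBPJ complex had 5 of 6 ratios below 0 by the brightest probe set and a median of -0.32. Snw1 read 369.63 in KO myoblasts and 473.63 in WT myoblasts, and the acetyltransferase gene Kat2a 361.47 in KO myoblasts and 462.06 in WT myoblasts, each with both other probe sets of opposite sign. Those had log2 ratios of at least 1.05 (WT under the floor) and 0.20 for Snw1. For Kat2a they were 0.39 and at least 1.81 (WT under the floor). Maml1, named after its values were seen, had log2 ratios of -0.29 and, by its other probe set, 0.93. Their direction thus depended on the probe set. Corepressors had 5 of 11 above 0 and a median of -0.05, which turned to 0.01 with loess and 0.02 with quantile scaling. Tle4, a Groucho-type corepressor that HES proteins recruit, was 2.04-fold higher in KO myoblasts by the 1 probe set over the floor (208.92 in KO and 102.31 in WT). Hdac2, a histone deacetylase, read 994.88 in KO myoblasts and 654.26 in WT myoblasts, with both other probe sets on the same side, and Ctbp1 read 764.10 and 651.37 (KO and WT).

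Of the 5 measured other HES and HEY genes and feedback targets, 1 had a ratio above 0 and 4 below, with a median log2 ratio of -0.42 and none at 2-fold. Hes6, a HES relative that favours myogenic differentiation and opposes Hes1, read 655.68 in KO myoblasts and 1166.19 in WT myoblasts (log2 ratio -0.83), but its other probe set read 435.51 and 375.18. Hes7, the member above 0, read 354.64 in KO myoblasts and 208.08 in WT myoblasts by 1 probe set. Hes5, a Notch target of the nervous system, read 89.91 in KO myoblasts and 120.21 in WT myoblasts. Hes3 read 19.15 in KO myoblasts, under the floor, and 76.14 in WT myoblasts, at least 1.62-fold lower. Of the 9 genes of this list, 4 (Hes2, Hey2, Bhlhe41 and Nrarp) were under the floor on both arrays. Nrarp, a feedback inhibitor induced by Notch, therefore gave no ratio here. These 4, Hes5 and Hes3 were named after their values were seen.

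Genes linked to Notch in satellite cells of the mouse, mainly collagen genes, were slightly above their WT signal by their brightest probe sets. The 5 measured ones had ratios between 0.07 and 0.49 (median 0.37), and none reached 2-fold. All 5 were above 0, beside 6758 of all 14597 measured genes, and stayed so with each scaling. Col6a1 was under the floor on both arrays. Col5a1, which encodes a chain of collagen V, read 232.29 in KO myoblasts and 168.14 in WT myoblasts. Col5a2, another collagen V chain, read 604.74 in KO myoblasts and 468.02 in WT myoblasts, while its other probe set read 94.32 and 174.12. Col6a2 read 108.21 in KO myoblasts and 93.95 in WT myoblasts, while its other probe set read 73.67 and 104.41. Col6a2 was named after its values were seen. The direction of Col5a2 and Col6a2 thus depended on the probe set. Beside this list, 4 of the 6 measured fibroblast markers had ratios above 0, with a summed signal of 1861 on the KO array and 1624 on the WT array. Of the 6, 1 was at least 2-fold lower, beside 6.72% of all measured genes. It was Tcf7l2 (139.13 in KO and 298.41 in WT), while its 3 other probe sets lay above 0. The fibroblast markers Thy1, Lum, Fap and Dpt were under the floor on both arrays. The part of fibroblasts in the collagen signals was not tested.

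**Figure D4:**
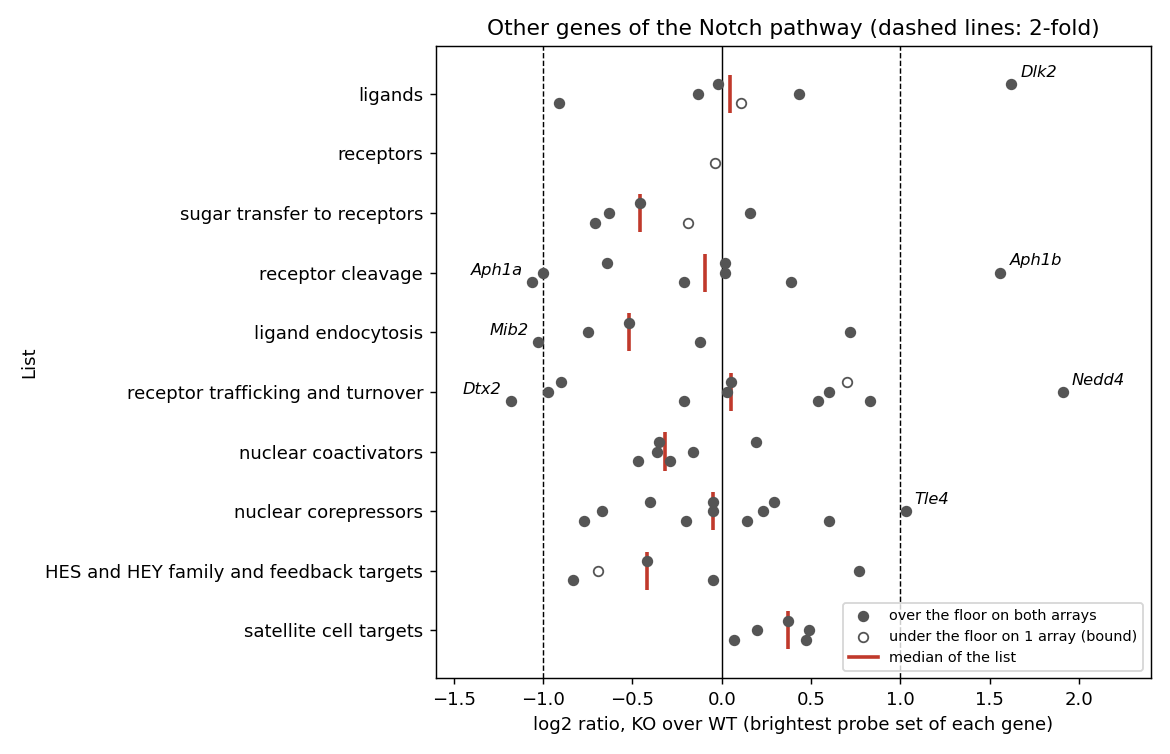
Log2 ratio, KO over WT, of the 63 measured further genes of the Notch pathway by list, with a point for each gene at its brightest probe set and a bar at the median of each list. Named genes are the 4 at least 2-fold higher (Nedd4, Dlk2, Aph1b and Tle4) and the 3 at least 2-fold lower (Dtx2, Aph1a and Mib2), spread over 5 lists.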

How the data were processed

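Total RNA of each culture was labelled as biotinylated cRNA from 10 ug of RNA, per the labels' protocols. The values are linear signal intensities per probe set as deposited by the authors. Their summary algorithm and scaling are not given in the sources used here, so they were used as deposited. The scanner records, per the file headers, matched in 40 of 42 fields. Columns without a sample numbered 0. Gene names came from the platform annotation, updated by Entrez identifier with RefSeq gene symbols (GRCm38.p6, for names only). Of 45037 probe sets, 34945 had 1 symbol (34741 with their identifier in the table), 932 had several and 9160 were not listed here. Those with several or none named no gene.

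The calculation used Python 3.11.15, pandas 2.3.3, numpy 2.4.6 and statsmodels 0.14.6, and was tested on simulated data. The floor was the 40th percentile of pooled values and the threshold 2-fold. With 1 array per group no p-value was computed, and the number of arrays limits the precision. The 10 genes and all lists were chosen with earlier results of these data known. The text names Foxj3, the 10 genes with every probe set, further pathway genes at least 2-fold different, and up to 2 of the brightest genes of each list. Others are named as markers, as under the floor, or where stated. With only a pair of arrays, genes of like pattern were not ranked. Alternatives were scaling by quantiles, by the median or by loess (span 0.3), the 20th or the 60th percentile as floor, a pseudocount equal to the floor, thresholds of 1.5-fold and 3-fold, the mean over probe sets, and no _s_at or _x_at probe sets. The promoter windows of Hes1, Hey1 and Heyl were not analysed here.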

Additional observations from a re-analysis of the deposited data

How the results depend on the processing

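The counts of Notch genes depended on scaling and threshold. The count of genes at least 2-fold higher in KO myoblasts was 0 as reported and 1 (Notch3) with quantile or loess scaling. With a 1.5-fold threshold it was 2, and the count of lower genes was 1 against 0 as reported. For the probe sets of these genes, the count higher was 2 as reported, 1 with the 60th percentile as floor, 6 at 1.5-fold and 0 at 3-fold, and the count lower was 1 at 1.5-fold against 0 as reported. For the further pathway genes, the count higher was 4 as reported, 10 at 1.5-fold, 2 at 3-fold and 2 with the mean over probe sets. Their count lower was 3 as reported, 5 with median scaling, 15 at 1.5-fold, 1 with loess scaling, with the mean over probe sets or without _s_at and _x_at probe sets, and 0 at 3-fold or with the pseudocount. The causes were not tested. The median log2 ratio of the 10 genes lay between 0.08 and 0.32 under the alternatives, and that of the further genes between -0.13 and -0.01. Of 79 values of single Notch genes under an alternative, all moved by less than the probe set SD of 0.66, and the sign of Numb turned in 2. That limit is loose, because the SD exceeds the size of most of the ratios. Within it, Notch1 ranged from -0.68 to -0.15 and Notch2 from 0.27 to 0.87. With the 60th percentile as floor Hey1 was no longer measured. The median of all measured genes lay between -0.10 and -0.02. Signals near the floor (Hey1, Jag1, Heyl and Numb) limit what can be read from their ratios. No paired analysis was possible because each group has 1 array.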
